A study of Mus musculus with 7 samples.

Results

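The mouse hairpin mmu-mir-22, here mir-22, gave 2 abundant strands in HL-1 cells, miR-22-5p (listed as miR-22* in older miRNA tables) and miR-22-3p (listed there as miR-22). All tags, that is, sequenced small RNAs, whose best ungapped placement among all mouse hairpins, with at most 2 mismatches, fell on mir-22 were taken as its members. They came to 83458 of the 41180696 deposited tags of 7 libraries, in 299 of 79503 distinct sequences, and none of them placed equally well on another hairpin. The hairpin had been picked from these libraries for its balanced strands, so the level of that balance is given as a description.

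HL-1 is an established mouse cardiac muscle line, derived from an atrial tumour driven by a viral large T antigen, and it keeps dividing while it beats. HL-1 cultures, for which no treatment is named, were sampled over 4 days, a span in which this line starts to beat. The libraries numbered 1 in the labels (days 1, 3 and 4) are called time course 1 here and the 4 numbered 2 (days 1, 2, 3 and 4) time course 2, since the study describes a time course and an independent repeat of it, so that days 1, 3 and 4 had 2 libraries each and day 2 had 1 library and no replicate. Small RNA of each culture was sequenced on the SOLiD platform, and all libraries share the 1 line, with no treatment named for any of them. The deposited files held 4945093 to 6899411 tags per library, of which 99.5% to 99.8% were placed on a hairpin. The study reports more tags sequenced per library, and a total mapped to miRNA hairpins near the deposited total. The placed share is therefore not a share of all small RNA sequenced. The HL-1 label was checked against marker miRNAs: the 7 muscle miRNA names (miR-1, miR-133a, miR-133b, miR-206, miR-208a, miR-208b and miR-499) made up 10.5% ± 0.812 of placed tags (SD, n = 7). The muscle names were uneven, counted by the more abundant strand over the 7 libraries. miR-133a-3p had 954079 tags and miR-208a-5p 91830, but miR-499-5p had 277 and miR-208b-3p 147. The summed share thus rests on the abundant names, and miR-499 and miR-208b taken alone add little to this check. The endothelial, blood, neuronal, liver, epithelial and fibroblast markers each reached at most 0.18% in any library, and no marker name was without tags.

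A miRNA hairpin is cut from its primary transcript by Drosha and from its loop by Dicer, which leaves a duplex of 2 short strands. One strand is usually kept by an Argonaute protein and guides it to messenger RNAs through bases 2 to 8, the seed, while the other strand is lost. miR-22-3p is abundant in heart and skeletal muscle, where it is known for its part in the growth of cardiomyocytes under stress.

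The mir-22 hairpin lies at chr11:75463716-75463810 on the plus strand (GRCm38, RefSeq). It is exonic: the GENCODE annotation places it in exon 2 of Mir22hg, a non-coding host gene, and in exon 2 of a non-coding transcript of Tlcd2. The RefSeq hairpin of 95 bases is shown because each tag below is a piece of it, with both annotated strands in capitals and the 16 bases between them in lower case:
mir-22 hairpin: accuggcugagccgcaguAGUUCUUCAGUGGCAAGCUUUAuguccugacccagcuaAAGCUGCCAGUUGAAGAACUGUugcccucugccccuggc

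The 2 annotated strands follow, each of 22 bases, with the seed in capitals, since the seed sets which messages a strand can pair with. They lie at chr11:75463734-75463755 (5p) and chr11:75463772-75463793 (3p):
miR-22-5p: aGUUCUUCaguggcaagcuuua
miR-22-3p: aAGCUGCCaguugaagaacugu

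The seeds of the 2 strands differ, and among 1738 mature mouse miRNAs in RefSeq no other miRNA shared bases 2 to 8 with either of them. In the minimum free energy fold of the hairpin (-41.9 kcal/mol, RNAfold), 19 bases of each strand paired with the other strand, 1 of these pairs being a G-U pair. The 5p seed lay opposite bases 13 to 19 of the 3p strand, and all 7 of its bases were paired. The 3p seed was likewise fully paired, opposite the region from base 12 to base 19 of the 5p strand, which holds the single unpaired base of 5p at base 16. The most frequent tags of the 2 strands left a 2-base overhang at both ends of the duplex, that cut by Drosha and that cut by Dicer.

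Both strands of mir-22 begin with A, and both of these first bases were paired in the fold. The first 4 pairs of the 5p strand were A-U, G-C, U-A and U-A, and those of the 3p strand A-U, A-U, G-C and C-G. Among 264 hairpins with tags on both arms and at least 150 tags on one of them, 22 (8.33%) began with A on both strands, and both first bases were paired in 46.2%. The overhang was 2 bases at the Drosha end in 43.2% of these hairpins and at the Dicer end in 42.0%. They include hairpins whose top tags form no plain duplex in the fold (mir-1191 gave 88 at the Drosha end). The study, on hairpins it took as canonically processed, reported higher shares at both ends. Of the 74 hairpins among them whose merged 5p share lay between 20% and 80%, 10 (13.5%) began with A on both strands and 44.6% had both first bases paired.

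Over the 7 libraries, 48075 tags came from the 5p arm and 35383 from the 3p arm. The 5p share of the hairpin's tags was 56.7% ± 10.3 (SD, n = 7), with a range from 45.0% to 69.1%, far wider than the counting error of a single library (95% Wilson intervals under 3 percentage points in width, which cover counting error only). As CPM, which scales every library to the same number of placed tags, miR-22-5p averaged 1166 ± 352 and miR-22-3p 862 ± 175 (SD, n = 7), so that in relative terms the 5p strand varied more. By mean level the 5p strand ranked 82 and the 3p strand 99 among 1158 strands with a tag, and the hairpin ranked 67 among 599 hairpin names.

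As CPM, a share of the placed tags, miR-22-5p was lower at day 4 than at day 1 in both time courses. Time course 1 gave 1569, 796 and 812 CPM on days 1, 3 and 4. Time course 2 gave 1223, 1555, 1381 and 825 CPM on days 1 to 4. Both day 4 values lay below both day 1 values, but the low level was reached by day 3 in time course 1 and on day 4 in time course 2.

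miR-22-3p followed another course. Time course 1 gave 1075, 973 and 991 CPM on days 1, 3 and 4. Time course 2 gave 546, 783, 797 and 872 CPM on days 1 to 4. The day 1 values of the 2 time courses enclosed the day 4 values, so the groups overlapped for this strand, whereas they did not for 5p. With 2 libraries per day, groups often separate by chance, and how many of all strands do so was not counted.

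**Figure D1:**
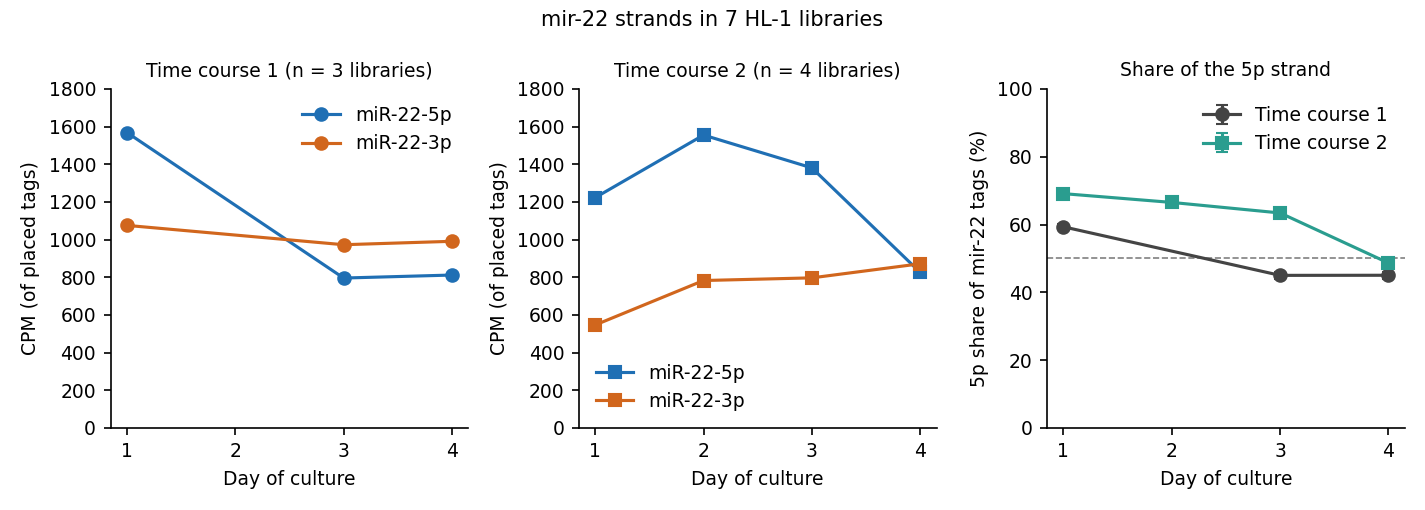
CPM (scaled to placed tags) of miR-22-5p and miR-22-3p against day of culture in time course 1 (3 libraries) and time course 2 (4 libraries), and the 5p share of mir-22 tags in percent with 95% Wilson intervals, most of them smaller than the symbols. The 5p strand lies above the 3p strand in 4 libraries, and the share is below 50% in the day 3 library of time course 1 and in both day 4 libraries.

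Neither strand passed the test between day 4 and day 1. In edgeR's quasi-likelihood test over 727 strands, miR-22-5p differed by -0.67 on the log2 scale (SE 0.35, n = 2 libraries per day, adjusted p = 0.597, lower in 2 of 2 time courses). The log2 difference of miR-22-3p was 0.31 (SE 0.38, adjusted p = 0.852). No strand of the 727 passed the adjusted threshold of 0.05 (0%), with 75 at an unadjusted p under 0.05, so the test set neither strand apart. With the time course added as a block, 9 strands passed by edgeR, and by DESeq2, without the block, 13 of 361 strands with an adjusted p passed. Under the block the adjusted p was 0.264 for miR-22-5p and 0.554 for miR-22-3p. Bulk libraries cannot tell fewer cells that make a strand from less of it per cell.

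The ratio of the 2 strands was lower at day 4 than at day 1 in both time courses. There were 1.46, 0.818 and 0.819 tags of 5p for each tag of 3p on days 1, 3 and 4 of time course 1. The same ratio was 2.24, 1.99, 1.73 and 0.947 on days 1 to 4 of time course 2. Put as the 5p share, the day 4 libraries (45.0% and 48.6%) lay below the day 1 libraries (59.3% and 69.1%) without overlap, while the day 3 libraries (45.0% and 63.4%) spanned the gap between them. How many other hairpins separate in this way was not counted.

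On the log2 odds scale the 5p share differed by -1.04 between day 4 and day 1 (SE 0.57, limma over 219 hairpins, adjusted p = 0.610), which did not pass. Of the 219 hairpins 0% passed, with 22 at an unadjusted p under 0.05, and 5 passed when the time course was added as a block. Under that block the mir-22 difference was again -1.04 (SE 0.47, adjusted p = 0.301, limma). The mir-22 difference was the 23rd from the lowest of 219, where the median of all hairpins was 0.050 and the lowest -2.75. Within the time courses, the log2 odds changed by -0.35 per day, and an exact two-sided permutation of the days within each time course gave p = 0.0139 over 144 arrangements (the smallest they allow is 0.00694). This fall was known when the hairpin was picked, so that p is no independent support. When single libraries were left out, the p ranged from 0.0417 to 0.0833, and it was above 0.05 without the day 1 library of either time course and without the day 2, day 3 or day 4 library of time course 2. With fewer arrangements the smallest p allowed was then 0.0208 or 0.0278, and the change per day ranged from -0.40 to -0.26.

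The time courses differed in level at matched days, though not past the test. In the fit with day and time course together, time course 2 against 1 gave a log2 difference of -0.48 for miR-22-3p (SE 0.24, adjusted p = 0.258) and 0.16 for miR-22-5p (SE 0.26, adjusted p = 0.783, edgeR). In that comparison 41 of 727 strands passed (5.64%), neither strand of mir-22 among them. The 5p share differed by 0.64 on the log2 odds scale (SE 0.39, adjusted p = 0.394, limma), where 5 of 219 hairpins passed (2.28%). Without the day 1 library of either time course, the miR-22-3p difference was nearer 0 (-0.29 without that of time course 1 and -0.28 without that of time course 2). Without either day 3 library, the difference in the 5p share was 0.41. The sign for miR-22-5p turned when either day 3 library was left out (-0.10 without that of time course 1 and -0.13 without that of time course 2).

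The spread of the 5p share was set beside that of hairpins that the study listed on these same libraries as giving both strands, which makes the list no independent evidence of balance. Over the 7 libraries the mean 5p share was 43.0% ± 9.03 for mir-322, 68.0% ± 7.89 for let-7d, 41.9% ± 5.19 for mir-700, 79.9% ± 4.22 for mir-361 and 43.0% ± 4.05 for mir-872. It was 77.6% ± 8.03 for mir-503, 70.6% ± 9.61 for mir-425, 63.4% ± 13.6 for mir-7 (copies merged) and 69.8% ± 12.1 for mir-28a (SD, n = 7 each). The strand that led changed between libraries in mir-22, mir-322 and mir-7, and in none of the other 7 hairpins shown. Among all 57 hairpins with a mean 5p share between 20% and 80%, 26 crossed 50% between libraries. The SD of the mir-22 log2 odds, 0.62, was the 26th highest of these 57, whose median was 0.56. None of the 10 hairpins passed the test between day 4 and day 1. The day 4 difference of mir-7 (-1.28 on the log2 odds scale) was lower than that of mir-22, and that of mir-322 was -0.91.

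**Figure D2:**
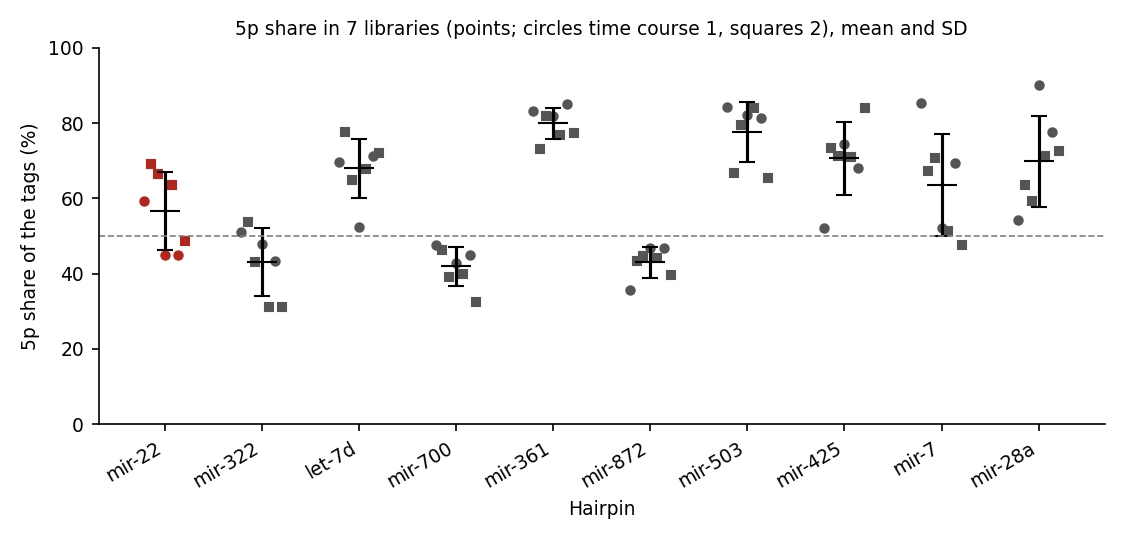
The 5p share of the tags in percent for mir-22 and 9 hairpins listed by the study as giving both strands, with 1 point per library (circles time course 1, squares time course 2) and the mean with its SD. The mir-22 points run from 45.0% to 69.1%, and those of mir-700 and mir-872 stay below 50% in all 7 libraries.

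The 5′ ends of both strands were nearly fixed. Of the 5p tags 99.6% ± 0.0792 started at the RefSeq start, and of the 3p tags 99.6% ± 0.110 (SD, n = 7), so that nearly all tags of a strand carried the same seed. A start 1 base late was seen in 88 tags of 5p and 66 tags of 3p, and a start 1 base early in 46 and 28 tags. Starts over 3 bases away from both annotated starts came to 51 tags in all, of which 4 began between the strands. No tag covered 3 or more bases of both strands across the loop.

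The 3′ ends varied far more than the 5′ ends on both strands. The 3 most frequent tags of each strand follow, written with T as in the deposited files. They are shown because they make up most of each strand and differ only in where they end, with capitals for bases past the RefSeq end:
miR-22-5p, 22 bases: agttcttcagtggcaagcttta
miR-22-5p, 21 bases: agttcttcagtggcaagcttt
miR-22-5p, 23 bases: agttcttcagtggcaagctttaT
miR-22-3p, 22 bases: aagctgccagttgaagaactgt
miR-22-3p, 23 bases: aagctgccagttgaagaactgtT
miR-22-3p, 21 bases: aagctgccagttgaagaactg

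The 22-base form was 53.8% ± 1.68 of 5p tags and 54.0% ± 6.80 of 3p tags (SD, n = 7). On the 5p strand the next form was 1 base shorter (21.3% ± 2.90), followed by the form 1 base longer (13.2% ± 1.67). The 3p strand showed the opposite order, with the longer form at 22.9% ± 4.37 and the shorter at 6.18% ± 1.07. Counted over all tags, 28.6% ± 2.92 of 5p tags ended short of the RefSeq end and 14.7% ± 1.70 past it, against 13.9% ± 1.81 and 30.1% ± 5.82 of 3p tags. All extra bases of the longer forms shown match the hairpin. Mismatches in the last base were almost absent from the deposited tags of all hairpins, so this match was close to fixed in advance.

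**Figure D3:**
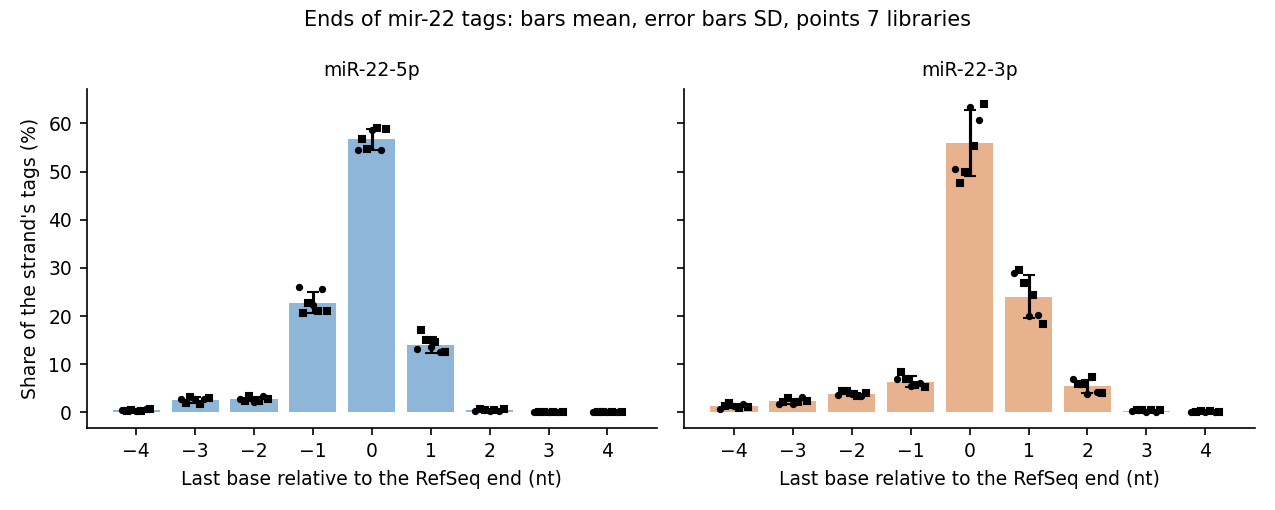
Share of each strand's tags in percent by the position of the last base relative to the RefSeq end in nucleotides, as the mean over 7 libraries (bars) with the SD (error bars) and each library (points, circles time course 1, squares time course 2). Short ends are more frequent on the 5p strand (22.8% at 1 base short) and long ends on the 3p strand (24.1% at 1 base past).

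Fewer tags of the 3p strand ended off the RefSeq end at day 4 than at day 1 in both time courses. On days 1, 3 and 4 of time course 1 such tags made up 49.4%, 36.5% and 39.2% of miR-22-3p. On days 1 to 4 of time course 2 they made up 52.5%, 50.2%, 44.6% and 36.0%. The day 4 libraries lay below the day 1 libraries without overlap, which is frequent by chance with 2 libraries per day and was not counted over all strands. For miR-22-5p the share was 45.5%, 41.4% and 45.6% in time course 1 and 43.2%, 45.2%, 40.9% and 41.1% in time course 2, and the day 1 and day 4 libraries overlapped.

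The log2 odds of ending off the RefSeq end differed by -0.78 for miR-22-3p between day 4 and day 1 (SE 0.24, unadjusted p = 0.0210, limma over 250 strands, adjusted p = 0.438), which did not pass after adjustment. For miR-22-5p the difference was -0.059 (SE 0.20, adjusted p = 0.917, limma), and its sign turned without the day 1 library of time course 1 (0.011) and without the day 4 library of time course 2 (0.073). Of the 250 strands 0% passed, with 20 at an unadjusted p under 0.05, and 16 of these 20 were lower at day 4. The miR-22-3p difference was the 17th from the lowest and the median of all strands was -0.064. Whether the 2 strands differ in this was not tested.

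Most miR-22-3p tags off the end were 1 base past it. For each tag that ended at the RefSeq end there were 0.571, 0.316 and 0.333 such tags on days 1, 3 and 4 of time course 1, and 0.622, 0.540, 0.441 and 0.287 on days 1 to 4 of time course 2. Both day 4 ratios lay below both day 1 ratios. The same ratio of miR-22-5p was 0.240, 0.230 and 0.230 on days 1, 3 and 4 of time course 1 and 0.302, 0.273, 0.246 and 0.213 on days 1 to 4 of time course 2. Its day 4 values also lay below its day 1 values without overlap. Separation of these ratios was not counted over other strands.

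**Figure D4:**
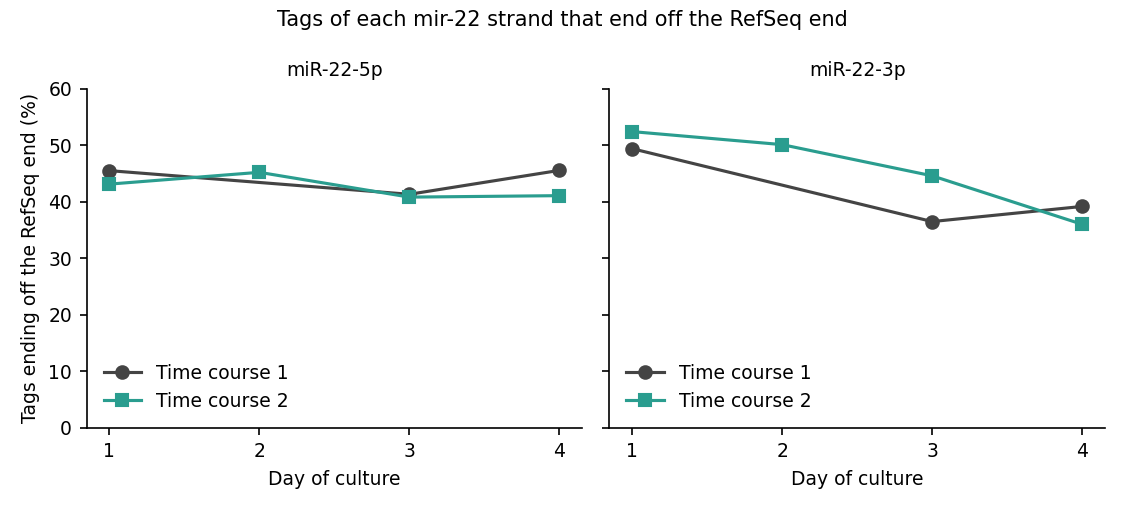
Tags of each strand that end off the RefSeq end, in percent of the strand's tags, against day of culture, with circles for time course 1 and squares for time course 2. The 3p strand runs from 49.4% to 39.2% in time course 1 and from 52.5% to 36.0% in time course 2, and the 5p strand stays between 40.9% and 45.6%.

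Tags over 24 bases were rare on both strands, with 86 on 5p and 226 on 3p, or 0.185% ± 0.143 and 0.647% ± 0.269 (SD, n = 7). The median over strands with at least 150 tags was 1.47%. Shown are 2 of the long forms, because they start at the RefSeq starts and run into the loop and the lower stem, again with the bases past the end in capitals:
miR-22-5p, 30 bases: agttcttcagtggcaagctttaTGTCCTGA
miR-22-3p, 27 bases: aagctgccagttgaagaactgtTGCCC

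The first was seen in 18 tags from 6 libraries and the second in 30 tags from 6 libraries. The longest tags reached 33 bases, near the read length, so longer pieces could not be seen.

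Mismatches to the hairpin lay mostly in a short stretch towards the 3′ end of the tags. Tags with 1 mismatch made up 5.11% ± 2.68 of 5p tags and 3.57% ± 0.733 of 3p tags, against 6.78% ± 1.33 of all placed tags (SD, n = 7), and no mir-22 tag had 2. On the 5p strand 91.0% of the mismatches lay at bases 17 to 20 of the tag and on the 3p strand 82.9%, and over all hairpins 77.2% did. Only 38 tags of 5p and 33 tags of 3p had the mismatch in bases 2 to 8. No mir-22 mismatch was in the last base, and over all hairpins only 0.00096% of mismatches were. Its absence there is thus not particular to mir-22 in the deposited tags. The commonest was G17A of the 22-base 5p form (the reference base first, positions counted from the tag's 5′ end), with 387 tags. The share of 5p tags with a mismatch was 10.7% in the day 4 library of time course 2 against 2.10% to 5.21% in the other 6. With tags of 0 mismatches alone, the 5p share differed by -1.07 on the log2 odds scale between day 4 and day 1 (adjusted p = 0.602, limma).

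The strands whose log2 CPM ran most like each mir-22 strand over the 7 libraries were drawn from 477 strands with at least 10 tags in every library. For miR-22-5p they were let-7e-3p (Pearson r = 0.91, n = 7), mir-3095-3p (0.90), mir-92b-3p (0.88), mir-465c-5p (0.84) and mir-504-5p (0.83). For miR-22-3p they were mir-143-3p (0.93), mir-3084-3p (0.93), mir-100-3p (0.92), mir-3068-3p (0.92) and mir-152-3p (0.90). The 2 strands of mir-22 itself were not alike in this sense (r = -0.39, n = 7). These values are descriptions, since the libraries share their scaling and the highest of many correlations is high by choice.

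Among 25 miRNAs known in cardiac hypertrophy, none passed between day 4 and day 1 by edgeR, as none of all 727 strands did. An unadjusted p under 0.05 was found for 3 of the 25, against 75 of the 727, and with the block 0 of the 25 passed, against 9 of the 727. Their log2 differences had a median of 0.11, with 15 above 0 and 10 below, against a median of -0.043 over all 727 strands. The leading strand of 14 of the 25 was above miR-22-5p in mean level and that of 15 was above miR-22-3p. For miR-1a-3p, the main muscle miRNA of the list, the mean was 64639 ± 7535 CPM, with a log2 difference of -0.059 (SE 0.25, adjusted p = 0.981, edgeR). miR-21a-5p, which rises in stressed hearts, gave -0.59 (SE 0.34, adjusted p = 0.643, edgeR). For miR-208a-5p, the more abundant strand of the hairpin in the myosin gene Myh6, the value was 1.38 (SE 0.36, adjusted p = 0.309, edgeR).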

How the data were processed

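Small RNA under 70 bases of HL-1 cultures was sequenced with SOLiD chemistry in 7 libraries. Per the methods of the study, the authors mapped tags to miRBase hairpins from an 18-base anchor, accepted isolated mismatches by base quality and flagged changes in the last base apart. The deposited tables hold tag sequences with raw tag counts, and the labels name mm9. In each library 7330 to 11084 lines repeated a sequence. Lines with the same sequence were summed, lines without a sequence left out (9 to 20 per library). The study counted some tags that mapped to several hairpins once for each, so the sums may hold such tags more than once. Whether they do was not tested. Tags of at least 16 bases were placed by the best ungapped hit, with at most 2 mismatches, on 1180 hairpins (963 from RefSeq, 217 from GENCODE M21, both GRCm38). A tag could overhang a hairpin by 4 bases. Ties were split equally and copies of a miRNA merged. An arm was given by the side of the middle between the annotated strands on which the tag's centre lay. Coordinates are those of GRCm38, and none was converted.

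Strand counts were tested with edgeR 4.0.16 (TMM, quasi-likelihood, day as a factor, 727 strands after filtering). Shares were tested with limma 3.58.1 on log2 odds (pseudocount 0.5, at least 50 tags in every library and 10 of each outcome). P-values were Benjamini-Hochberg adjusted over all strands or hairpins tested. DESeq2 1.42.0, library totals, other filters, 0 mismatches, starts within 3 bases, a replicate block and leaving out each library were alternatives, and for the permutation test the last was added after seeing the data. The study describes an independent repeat of the time course that was not sampled on day 2. Only the libraries numbered 1 lack day 2, so time course 1 is by that description the repeat. Deviations of same-numbered libraries from the day means correlated at 0.383 to 0.400 over 727 strands for all 3 pairs of days, so the numbers were taken to pair the samples. In tests on simulated data with 727 strands, edgeR called 7 of 66 strands changed by 1 on the log2 scale, 41 of 66 changed by 2 and 65 of 68 changed by 3. With 219 simulated hairpins, limma called 43 of 54 whose share changed by 2 on the log2 odds scale. The spread between libraries set in that simulation was below the SD of the mir-22 log2 odds over the 7 libraries (0.62). Recovery at the spread of mir-22 may thus be lower. Smaller changes of a share were not simulated. Folds were predicted with RNAfold 2.7.2. Named were both mir-22 strands, hairpins the study listed as balanced, a fixed list of hypertrophy miRNAs (each by its more abundant strand) and the 5 strands most like each mir-22 strand. The hairpin and all lists were chosen with earlier results of these data known. The 2 strands differ in sequence and the capture of each by ligation was not measured, so their ratio is one of tags.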

Additional observations from a re-analysis of the deposited data

Results flagged for a closer look

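The level of miR-22-3p moved in opposite directions in the 2 time courses between day 1 and day 4. As CPM over placed tags, the log2 difference was -0.12 in the first and 0.67 in the second, each from 1 library per day, and the difference between the time courses was not tested. With TMM scaling the values were 0.052 and 0.70, so the sign in time course 1 depends on the scaling. No group had the 4 libraries needed to look for a library far from the rest.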

How the results depend on the processing

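The 2 strand levels, the 5p share and the share of 3p tags off the RefSeq end kept their sign between day 4 and day 1 under every alternative run, and none of them passed the adjusted threshold under any. With a replicate block, which added the time course to the same fits, 9 strands passed by level in place of 0 and 5 hairpins by 5p share in place of 0, and it changed no call on mir-22. DESeq2 called 13 strands. A minimum of 20 tags gave 2 hairpins by 5p share. With 1 library left out at a time, 0 to 1 hairpins passed by 5p share, and the day 4 difference ranged from 0.019 to 0.83 for the level of miR-22-3p (lowest without the day 1 library of time course 2, highest without that of time course 1), from -0.71 to -0.51 for miR-22-5p, from -1.35 to -0.73 for the 5p share, from -0.88 to -0.69 for 3p tags off the end and from -0.19 to 0.073 for 5p tags off the end. Between the time courses, miR-22-5p ranged from -0.13 to 0.37, miR-22-3p from -0.65 to -0.28 and the 5p share from 0.41 to 0.85. The trend of the 5p share ranged from -0.40 to -0.26 per day. The cause of these changes was not tested. With 2 libraries per day edgeR recovered few small simulated differences, and small differences of a share were not simulated. A lone library of a day was taken to vary like the others.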
